A study of Homo sapiens with 10 samples.

Results

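FSCN3, RNF217, FSD2 and RNASE2 are 4 of 20033 protein-coding genes whose promoters were compared between C4-2BER and C4-2B prostate cancer cells for acetylation of histone H3 at lysine 27 (H3K27ac) and at lysine 18 (H3K18ac). They were chosen by their promoter fold enrichment in these same lists, which puts them at the head of 2 rankings. Genes were ranked by the smaller of their 2 values, 1 per mark. By the smaller log2 ratio, FSCN3 and RNF217 came first among 14241 genes whose promoters carried both marks in each cell line, and by the smaller fold enrichment, FSD2 and RNASE2 came first among the 56 genes with promoter peaks of both marks in C4-2BER only. Their promoter values are therefore a description of the choice. What follows shows where the peaks behind these values lay, which neighbouring genes shared them and what else was acetylated in each gene body and 100 kb to each side.

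The cell line C4-2B comes from castration-resistant adenocarcinoma of the prostate. C4-2BER is its enzalutamide-resistant derivative with neuroendocrine (NE)-like features, which the study kept in the antiandrogen enzalutamide, so that resistance, the presence of the drug and the history of 1 derived line cannot be told apart. Each mark was profiled by ChIP-Seq in 2 libraries per cell line, which makes 8 ChIP libraries, beside 1 input library per cell line. The libraries of a mark and cell line were merged before peaks were called, so there is 1 peak list and 1 value per mark and cell line, with no replicate error and no test, and the depth of the libraries is unknown.

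Acetylation of H3K27 and H3K18 is placed mainly by the coactivators p300 and CBP and marks active promoters and enhancers. A promoter peak in a list belongs to a stretch of chromatin and not to a gene, so neighbouring genes can share it. FSCN3 encodes a fascin, a family of proteins that bundle actin filaments, and is known from the testis. RNF217 encodes an E3 ubiquitin ligase of the RING-between-RING type. FSD2 encodes a protein with fibronectin type III and SPRY domains known from muscle. RNASE2 encodes the eosinophil-derived neurotoxin, a secreted ribonuclease of the RNase A family, and lies beside RNASE3, which encodes the eosinophil cationic protein.

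All coordinates are in GRCh38. FSCN3 lies at chr7:127591409-127602144 on the plus strand and has 5 annotated transcription start sites (TSSs). RNF217 lies at chr6:124962437-125092633 on the plus strand with 10 TSSs. FSD2 lies at chr15:82755362-82806070 on the minus strand with 3 TSSs. RNASE2 lies at chr14:20955487-20956436 on the plus strand with 1 TSS. A promoter was the stretch from 2000 bp before to 500 bp after any TSS of the gene, and its value as the highest fold enrichment of any peak that touched these windows, where the fold enrichment is the ChIP signal of a peak over the local background.

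The sequences under the deciding peaks differed in kind. The 250 bases upstream of the canonical RNF217 TSS are shown because they lay wholly inside acetylated sequence (chr6:124962187-124962436, plus strand, RefSeq promoter of GRCh38.p14). Capitals mark matches to GGGCGG, the letters bound by SP and KLF factors, and to CCGGAA, those bound by ETS factors, each searched on both strands.
RNF217 promoter: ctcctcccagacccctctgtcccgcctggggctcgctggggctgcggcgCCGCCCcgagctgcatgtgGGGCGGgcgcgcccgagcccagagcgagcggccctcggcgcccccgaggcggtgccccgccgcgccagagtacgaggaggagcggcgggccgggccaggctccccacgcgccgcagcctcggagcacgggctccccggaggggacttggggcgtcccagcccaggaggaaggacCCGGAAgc

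For FSCN3, the stretch that follows is shown because it was the only sequence under the deciding H3K27ac peak that lay in an FSCN3 promoter window (chr7:127589409-127589705, plus strand, 297 bases). It lies within ARF5, the neighbouring gene, and holds 110 bases of exon 3 of 6 of that gene, the rest being intron. Capitals mark 1 match to CCAAT, the letters bound by NF-Y, and 3 matches to AGAACA, a half-site of steroid receptors. These letters occur at least once in 34.6% and 14.8% of RefSeq promoters, and binding to this stretch was not tested.
FSCN3 window edge: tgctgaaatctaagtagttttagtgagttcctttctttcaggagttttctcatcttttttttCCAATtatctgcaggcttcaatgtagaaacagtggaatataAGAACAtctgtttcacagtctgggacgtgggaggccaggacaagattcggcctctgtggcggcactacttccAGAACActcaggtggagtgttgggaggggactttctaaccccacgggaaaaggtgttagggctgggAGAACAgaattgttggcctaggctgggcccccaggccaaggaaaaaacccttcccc

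For RNASE2, the 200 bases of the H3K27ac peak nearest to the gene (chr14:20953412-20953611, plus strand) are shown with the 187 bases aligned to them upstream of RNASE3 (chr14:20889366-20889552, plus strand), because the RNASE2 bases lie in a C4-2BER peak and the C4-2BER peaks of RNASE3 reach into their counterpart, covering only its upstream part. Capitals mark the 12 of 187 aligned bases that differ and the 13 bases of the RNASE2 sequence that have no aligned partner.
RNASE2 element: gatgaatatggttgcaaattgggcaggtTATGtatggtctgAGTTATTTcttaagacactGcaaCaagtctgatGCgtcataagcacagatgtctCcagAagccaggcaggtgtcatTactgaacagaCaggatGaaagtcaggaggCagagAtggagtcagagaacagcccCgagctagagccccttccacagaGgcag
RNASE3 element: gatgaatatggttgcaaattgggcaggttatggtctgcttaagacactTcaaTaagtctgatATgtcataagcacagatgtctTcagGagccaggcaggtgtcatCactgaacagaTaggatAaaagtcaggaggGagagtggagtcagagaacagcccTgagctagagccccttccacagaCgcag

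For FSCN3 the highest H3K27ac fold enrichment in the promoter windows reached 17.1 in C4-2BER against 2.37 in C4-2B, a log2 ratio of 2.85, and the highest H3K18ac fold enrichment reached 8.79 against 2.51, a log2 ratio of 1.81. For RNF217 the H3K27ac values were 11.9 and 3.21, a log2 ratio of 1.89, and the H3K18ac values were 9.51 and 4.61, a log2 ratio of 1.05. The genes that came next in this ranking, CCL8, a chemokine, and IFIT3, an interferon-induced gene, had log2 ratios of 0.93 and 0.80 in H3K27ac and of 1.00 and 0.81 in H3K18ac, so CCL8 was close to RNF217 in the latter mark. FSD2 had promoter peaks of 15.9 in H3K27ac and 7.61 in H3K18ac in C4-2BER, and RNASE2 had peaks of 8.56 and 6.04, with no peak in C4-2B for either gene. CENPVL3, the next gene of that ranking, had values of 7.23 in H3K27ac and 5.29 in H3K18ac, and SMIM6 had values of 6.83 and 5.09. A promoter was counted as increased if its peak was found in C4-2BER alone, or in both lines with a ratio of 2 or more, and as decreased in the mirrored case. All 4 genes were increased in both marks, as their choice requires, where 3.49% of all protein-coding promoters were increased and 8.27% decreased in H3K27ac, and 1.92% increased and 5.25% decreased in H3K18ac.

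**Figure D1:**
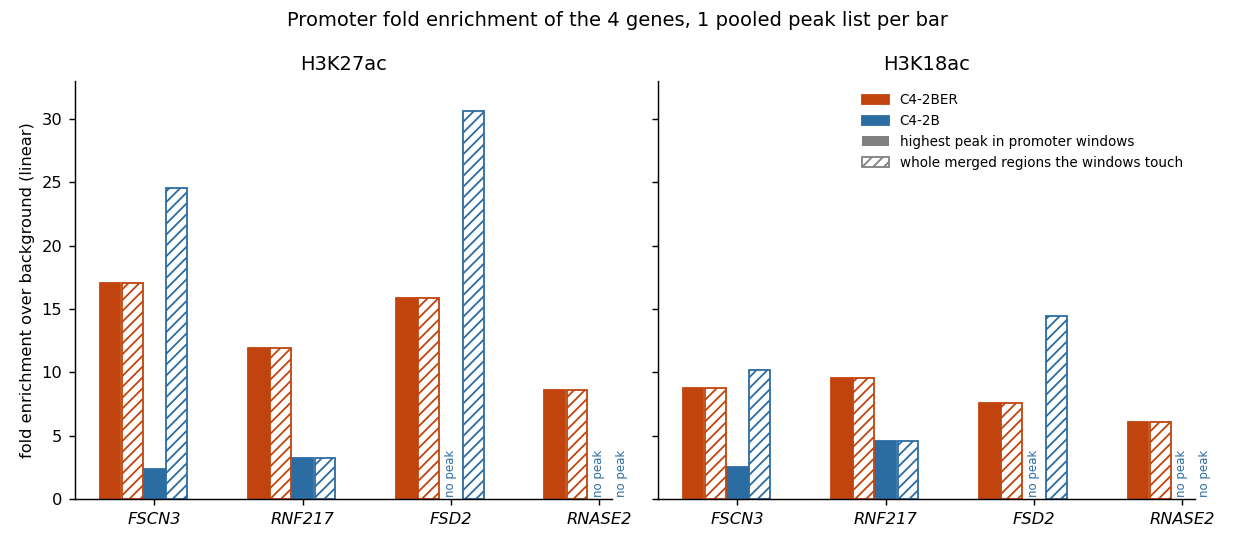
Fold enrichment over background (linear axis) of each gene in C4-2BER and C4-2B, by mark; filled bars are the highest peak in the promoter windows and hatched bars the whole merged regions that the windows touch, with 1 pooled list per bar. For FSCN3 and FSD2 the hatched C4-2B bars are the higher ones (24.6 and 30.6 in H3K27ac), while for RNF217 and RNASE2 filled and hatched bars are the same.

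For FSCN3, the peak that set the C4-2BER value was the peak over the TSS of ARF5. ARF5 encodes a small GTPase of Golgi trafficking and lies just upstream of FSCN3 on the same strand. The H3K27ac peak in C4-2BER spanned chr7:127587629-127589705 (2077 bp) and reached 297 bp into the window of the most upstream FSCN3 TSS, which lies 2327 bp upstream of the canonical TSS. These bases made up 14.3% of the peak. C4-2B had a peak at the same place, chr7:127587617-127589402 (1786 bp), with a higher fold enrichment of 24.6, but it ended 7 bp short of the FSCN3 window. The C4-2BER peak reached 303 bp further towards FSCN3.

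H3K18ac repeated this arrangement. The C4-2BER peak, chr7:127587598-127589627, had a fold enrichment of 8.79 and 219 bp, or 10.8% of its length, in the FSCN3 window. The C4-2B peak, chr7:127587583-127589397, had a fold enrichment of 10.2 and ended 12 bp short of it. Taken over the whole regions, the log2 ratio of C4-2BER over C4-2B at this site was -0.53 in H3K27ac and -0.22 in H3K18ac. Over all protein-coding promoters with peaks in both lines the medians were -0.50 and -0.33. After rescaling by a line fitted over all shared regions, the log2 ratios at this site were -0.05 and 0.05. The H3K18ac direction thus turned, and no change is read from this site. In the ranking by whole regions FSCN3 fell from rank 1 to rank 6668 of 14363 genes.

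At the TSSs of FSCN3 itself, the peaks were weak and were those of C4-2B. An H3K27ac peak of 2.37 in C4-2B only (chr7:127591041-127591505) lay over the most upstream TSS. An H3K18ac peak of 2.13 in C4-2B only (chr7:127592698-127593826) lay over the canonical TSS, and C4-2BER had no peak of either mark there. The latter peak also covered a TSS of GCC1, which encodes a golgin and is transcribed in the opposite direction. The main GCC1 promoter peak, chr7:127584158-127586031 in C4-2BER, lay upstream of ARF5, with H3K27ac fold enrichments of 12.5 in C4-2BER against 21.6 in C4-2B. An H3K18ac peak of 2.51 in C4-2B (chr7:127595346-127595931) lay over the TSS 1705 bp downstream of the canonical one. A C4-2BER peak of 2.10 (chr7:127595566-127595935) overlapped it but began downstream of that TSS, and the log2 ratio of the region they shared was -0.26. The 300-base RefSeq promoter of FSCN3 holds 5 CpG dinucleotides, where the median of 34943 RefSeq promoters is 14, and of the 9 motifs searched only CCGGAA was matched, as it is in 17.2% of all promoters.

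FSD2 showed the same arrangement with WHAMM, which encodes an actin nucleation-promoting factor and is transcribed away from FSD2 in the opposite direction, its TSS lying 3559 bp upstream of that of FSD2. The H3K27ac peak in C4-2BER, chr15:82807842-82810934 (3093 bp), covered the WHAMM TSS, and 229 bp of it (7.40%) lay in the FSD2 windows. The C4-2B peak, chr15:82808616-82810895 (2280 bp), covered the WHAMM TSS with a fold enrichment of 30.6, higher than 98.4% of the peaks of its list, and ended 546 bp outside the FSD2 windows. The C4-2BER peak reached 774 bp further towards FSD2.

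In H3K18ac, 147 bp (5.28%) of the C4-2BER peak chr15:82807924-82810709 lay in the FSD2 windows. The C4-2B peak chr15:82808763-82810728 had a fold enrichment of 14.5 and lay 693 bp outside them. Over the whole regions the log2 ratio was -0.95 in H3K27ac and -0.93 in H3K18ac, and -0.45 and -0.64 after rescaling. No list had a peak over any FSD2 TSS, and the nearest other peak was an H3K18ac peak of 2.87 in C4-2BER only in intron 1 (chr15:82803249-82803650). The RefSeq promoter of FSD2 holds 1 CpG and no match to any of the 9 motifs.

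**Figure D2:**
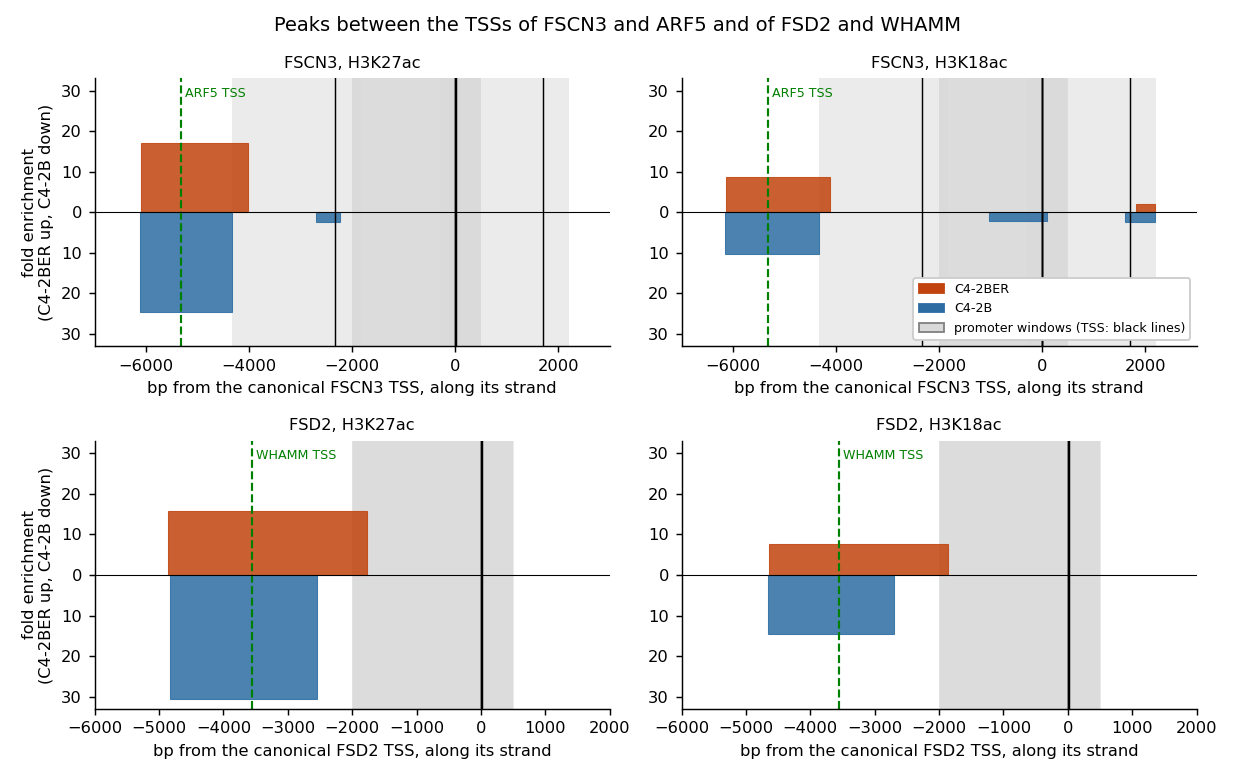
Peaks between FSCN3 and ARF5 (top) and between FSD2 and WHAMM (bottom), drawn by distance in bp from the canonical TSS of FSCN3 or FSD2 along its strand, with bar height as fold enrichment (C4-2BER upwards, C4-2B downwards), promoter windows in grey, the TSSs of FSCN3 or FSD2 as black lines and the neighbour's TSS as a green dashed line. The C4-2BER peaks cross the outer edge of the grey windows, and the higher C4-2B peaks stop before it (by 7 and 12 bp at FSCN3 and by 546 and 693 bp at FSD2).

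At RNF217, in contrast, the peaks lay over the gene's own TSS in both cell lines. In H3K27ac the C4-2BER peak, chr6:124961734-124963010 (1277 bp), had a fold enrichment of 11.9, and the C4-2B peak inside it, chr6:124962022-124962461 (440 bp), had one of 3.21. In H3K18ac the peaks were more alike in extent, chr6:124961723-124963456 (1734 bp) in C4-2BER at a fold enrichment of 9.51 and chr6:124961798-124963304 (1507 bp) in C4-2B at 4.61. Every base of these peaks lay in RNF217 promoter windows, and the log2 ratios of 1.89 and 1.05 were the same over the whole regions, where RNF217 ranked first of 14363 genes by the smaller ratio. The H3K18ac log2 ratio fell to 0.62, short of a ratio of 2, with a mean weighted by the bases in the windows. The same peaks lay in the promoter windows of RNF217-AS1, a lncRNA transcribed in the opposite direction whose canonical TSS lies 599 bp downstream of that of RNF217. All but the short H3K27ac peak of C4-2B covered a TSS of both genes, so the rise cannot be assigned to either.

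The RNF217 promoter was rich in G and C. The H3K27ac region had a GC content of 73.5% and the H3K18ac region one of 71.2%, both in the highest of 10 equal classes of GC content. In this class there were 0.237 regions of C4-2BER only for each region of C4-2B only in H3K27ac and 0.0417 in H3K18ac. Among the shared regions of this GC class, 45 of 4406 in H3K27ac and 3 of 12922 in H3K18ac had a ratio of at least 2, and RNF217 was among both. Of all 45431 shared H3K27ac regions, 32 had a higher log2 ratio, as had 218 of 125361 in H3K18ac. RNF217 was chosen by these ratios, so its high place among these regions and its rank over whole regions describe that choice. The RefSeq promoter holds 39 CpG dinucleotides, more than 91.3% of RefSeq promoters. GGGCGG was matched at 2 positions, as it is at least once in 44.9% of promoters, and CCGGAA at 1, and no TATAAA was found.

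Within the RNF217 gene body, most acetylated regions were those of C4-2BER. Apart from the promoter region, 8 H3K18ac regions lay in the body, all in intron 1 and all in C4-2BER only, and C4-2B had none there, where over the whole lists 64656 of 247646 H3K18ac regions were found in C4-2BER only. Of the 6 H3K18ac regions in the FSD2 body, 4 were of C4-2B only, 1 was of C4-2BER only and 1 was shared. Over the whole lists 57629 of 247646 H3K18ac regions were of C4-2B only. The only H3K27ac region in the FSD2 body was of C4-2B only, as were 18251 of 89877 over the whole lists. The fold enrichments of the 8 RNF217 regions ran from 2.20 to 4.44. The strongest, chr6:124998398-124998897, carried a fold enrichment of 4.44 in H3K18ac and had an H3K27ac peak of 2.75 within it, also in C4-2BER only (chr6:124998566-124998829). The strongest peak of the locus belonged to a neighbour and was lower in C4-2BER: at the canonical TSS of TPD52L1, a member of the tumour protein D52 family, H3K27ac reached a fold enrichment of 19.5 in C4-2BER against 36.3 in C4-2B, a log2 ratio of -0.90.

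RNASE2 had an acetylated region of its own that no other promoter window shared. An H3K27ac peak at chr14:20952974-20953611 (638 bp) with a fold enrichment of 8.56 and an H3K18ac peak at chr14:20952997-20953598 (602 bp) with one of 6.04 lay in C4-2BER only. They lay between 2513 and 1876 bp upstream of the TSS, in intergenic sequence. The promoter window took in 125 bp of the H3K27ac peak and 112 bp of the H3K18ac peak. The value thus describes an upstream region more than the TSS. At the TSS itself there was an H3K18ac peak of 2.30 in C4-2BER only (chr14:20955448-20955786) and no H3K27ac peak. A further H3K18ac peak of 2.72 in C4-2BER only lay at chr14:20950653-20951828, and C4-2B had no peak of either mark from 4000 bp upstream to 1000 bp downstream of the TSS.

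The paralogue RNASE3, which lies 64102 bp upstream in the same orientation, had peaks at matching positions. An H3K27ac peak of 4.72 (chr14:20888968-20889426) and an H3K18ac peak of 5.50 (chr14:20888931-20889463) lay in C4-2BER only, the former between 2417 and 1959 bp upstream of the RNASE3 TSS. As at RNASE2, a weak H3K18ac peak, here of 2.74 (chr14:20891384-20891849), lay over the TSS, and another of 2.38 (chr14:20886751-20887854) lay further upstream, both in C4-2BER only. Of the 638 bases of the RNASE2 H3K27ac peak, 619 aligned upstream of RNASE3 with an identity of 89.7%, and their counterpart, chr14:20888908-20889552, contained both RNASE3 peaks.

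The pseudogene RNASE2CP, which lies between them, carries a further copy of this sequence. It aligned over 634 bases of the RNASE2 peak with an identity of 90.2%, and no list had a peak from 4000 bp upstream to 1000 bp downstream of its TSS. The authors removed alignments with a low mapping quality, and whether reads from one copy were placed at another was not tested, so the RNASE2 and RNASE3 values are uncertain to that extent. In the RefSeq promoter of RNASE2, CCAAT was matched once, CAGCTG (E-box) at 2 positions and AGAACA once, which are found in 34.6%, 17.9% and 14.8% of promoters.

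**Figure D3:**
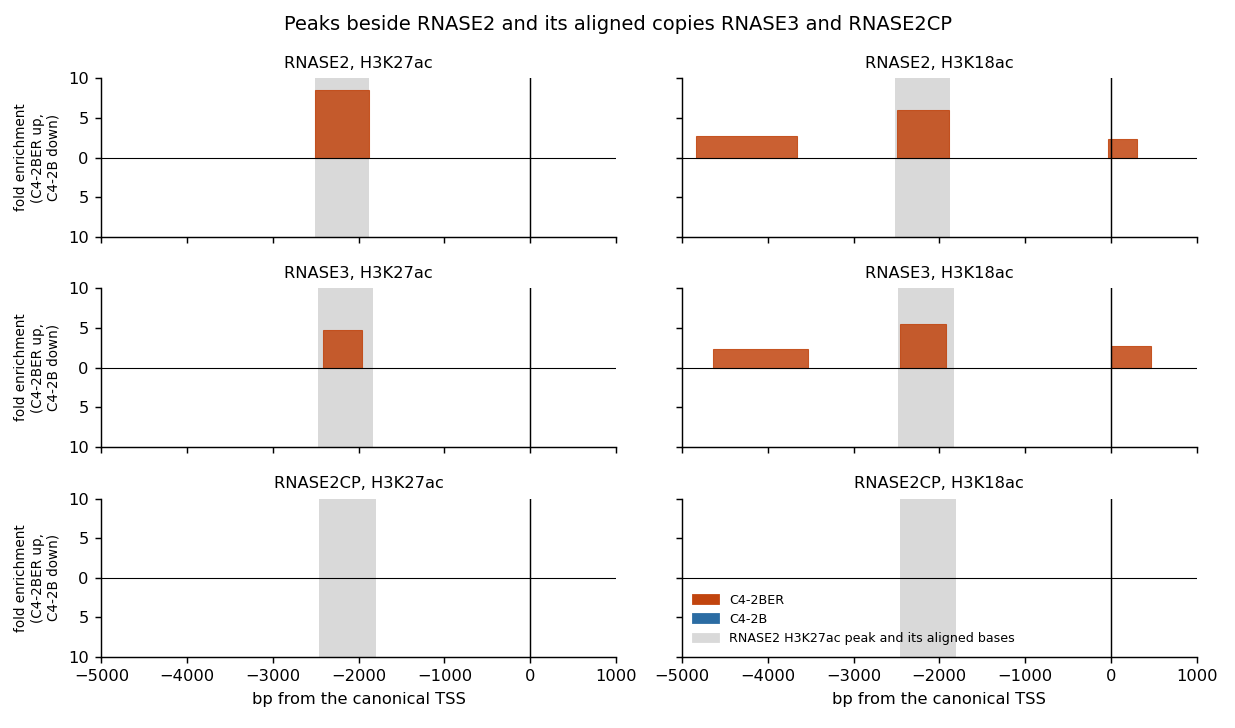
Peaks beside RNASE2, RNASE3 and RNASE2CP by distance in bp from each canonical TSS, with bar height as fold enrichment (C4-2BER upwards, C4-2B downwards) and grey bands for the RNASE2 H3K27ac peak and the bases aligned to it. RNASE2 and RNASE3 each show 1 H3K27ac and 3 H3K18ac peaks at matching distances, all in C4-2BER, and RNASE2CP shows none.

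Over the loci as a whole, peaks were merged into regions wherever those of the cell lines overlapped, and a region was counted as increased or decreased by the rule used for promoters. The 4 loci held 42 H3K27ac regions, of which 15 (35.7%) were increased, beside 30.5% of all regions, and 8 (19.0%) were decreased, beside 22.7%. Of 113 H3K18ac regions, 46 (40.7%) were increased, beside 26.2% of all regions, and 21 (18.6%) were decreased, beside 23.5%. The increased regions include those whose values chose RNF217 and RNASE2. The shares were uneven between the loci. In the RNF217 locus 20 of 31 H3K18ac regions were increased and 2 decreased, and in the RNASE2 locus 13 of 25 were increased and 3 decreased. In the FSCN3 locus 6 of 23 were increased and 6 decreased, and in the FSD2 locus 7 of 34 were increased and 10 decreased.

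The regions found in 1 cell line only were mostly weak. In H3K27ac the 14 regions of C4-2BER only had a median fold enrichment of 2.73 and the 7 of C4-2B only one of 2.37. In H3K18ac the medians were 2.53 over 45 and 2.44 over 21 regions. They also differed in base composition as such regions did over the whole lists: the median GC content of the H3K18ac regions of C4-2BER only was 48.7% and that of the regions of C4-2B only 55.9%, where over all such regions it was 49.0% and 54.9%. The part of base composition in the counts of increased and decreased regions was not tested.

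Regions present in both cell lines had on balance slightly lower values in C4-2BER, as over the whole lists. The median log2 ratio of the 21 shared H3K27ac regions was -0.24, beside -0.17 for all shared regions, and that of the 47 shared H3K18ac regions was -0.13, beside -0.12. A shared H3K27ac region over the canonical TSS of AP3B2, which encodes a neuronal subunit of the AP-3 adaptor complex, had the lowest ratio, with fold enrichments of 5.95 against 13.6 in C4-2B. Its log2 ratio was -1.19, and -0.92 after rescaling, which is short of a ratio of 2. The RNF217 promoter had the highest, and the only other shared H3K27ac region with a log2 ratio above 0.9 lay over an alternative TSS of NDRG2 in the RNASE2 locus, with fold enrichments of 7.05 and 3.69. The log2 ratio of the NDRG2 region was 0.93, and 1.07 after rescaling, which is past a ratio of 2.

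**Figure D4:**
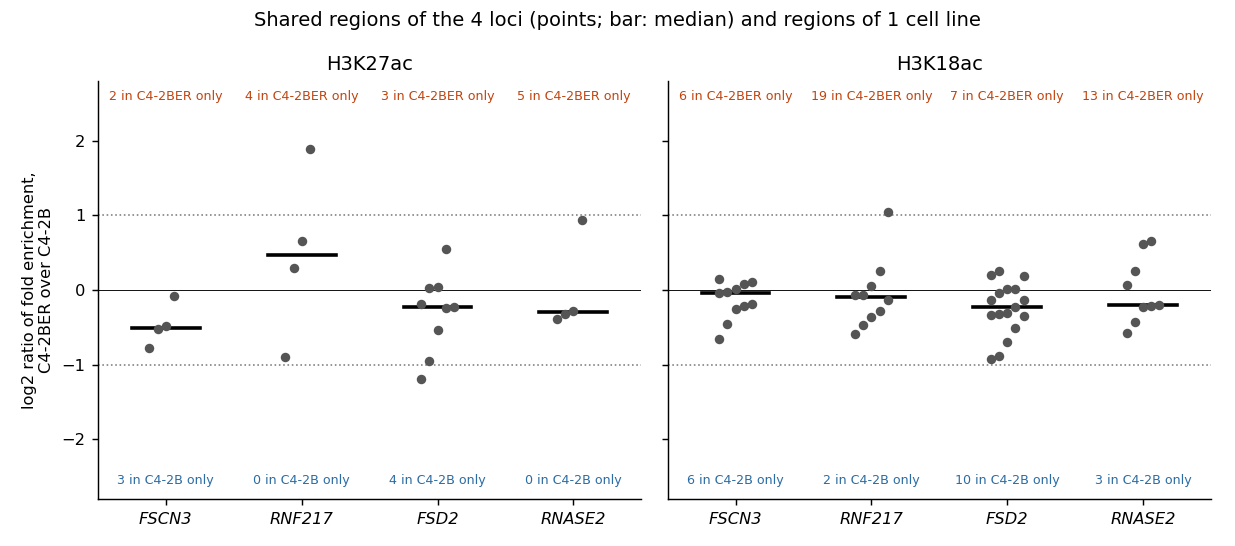
Log2 ratio of fold enrichment, C4-2BER over C4-2B, for each region shared by the cell lines in the 4 loci (points, bars for medians, dotted lines for a ratio of 2 in either direction), with the numbers of regions found in 1 cell line only above and below. The RNF217 promoter is the point above 1 in both panels, and regions of C4-2BER only are most numerous at RNF217 (19 in H3K18ac) and RNASE2 (13).

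Of the 42 H3K27ac regions, 10 (23.8%) overlapped an H3K18ac region that was increased as well, beside 8.15% of all H3K27ac regions, and none was decreased in both marks, beside 5.01%. The 10 include the RNF217 promoter and the region upstream of RNASE2, whose values chose these genes, so nothing is read from their share. The RNF217 locus held 4 of the 10, which were its promoter, the intron 1 region and 2 regions in intron 1 of TPD52L1. The RNASE2 locus held 3, which were the regions upstream of RNASE2 and RNASE3 and a region centred 83645 bp downstream of the RNASE2 TSS. The FSD2 locus held 2, both between FSD2 and AP3B2, and the FSCN3 locus 1, in intron 1 of SND1, which encodes a nuclease-domain transcriptional coactivator.

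**Figure D5:**
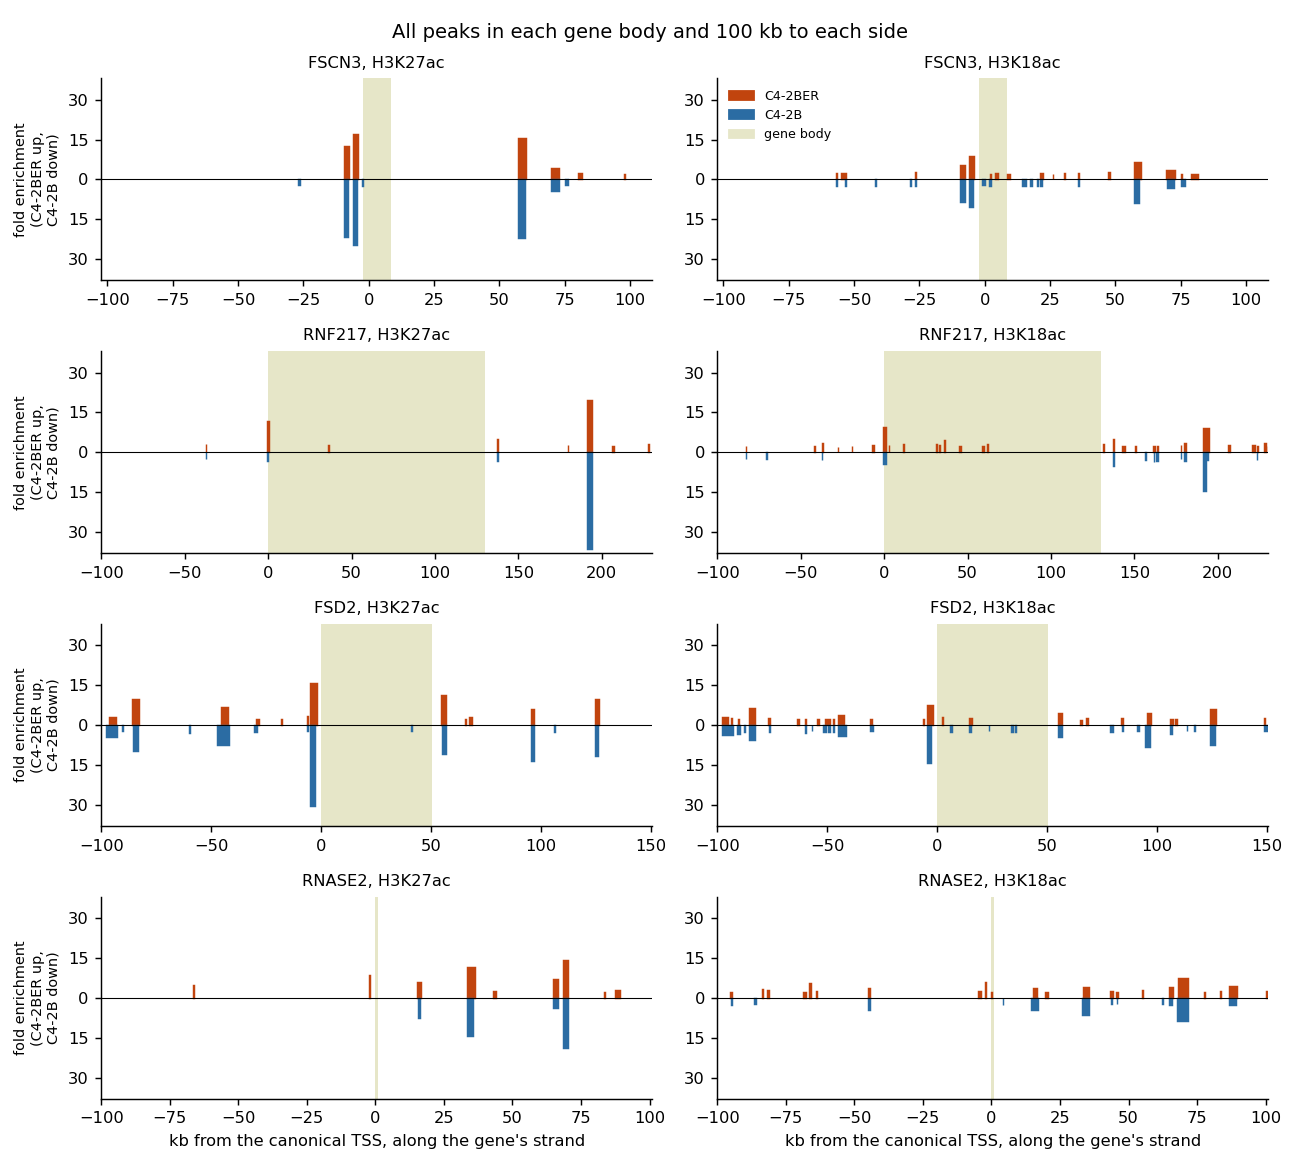
All peaks in each gene body (shaded) and 100 kb to each side, by distance in kb from the canonical TSS along the gene's strand, with bar height as fold enrichment (C4-2BER upwards, C4-2B downwards). The tall peaks are shared and mostly higher in C4-2B, and peaks of 1 cell line only are short, with the region upstream of RNASE2 (8.56 in H3K27ac) as the tallest of them.

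Among the neighbours, 3 of 15 protein-coding genes had an increased promoter in H3K27ac, beside 3.49% of all protein-coding genes, and none a decreased one, beside 8.27%. In H3K18ac 1 was increased, beside 1.92%, and none decreased, beside 5.25%. The increased ones all lay in the RNASE2 locus. RNASE3, described above, was the neighbour increased in both marks. SLC39A2, which encodes a zinc importer, had an H3K27ac promoter peak of 2.72 in C4-2BER only and H3K18ac values of 2.69 and 2.25, given for C4-2BER first here and in what follows. RNASE7, which encodes an antimicrobial ribonuclease, had an H3K27ac peak of 2.99 in C4-2BER only and H3K18ac values of 4.47 and 2.83. The nearest protein-coding genes on the other sides of the 4 genes did not meet the rule: PAX4, a homeobox transcription factor gene next to FSCN3, had no H3K27ac promoter peak and H3K18ac values of 2.50 and 2.54, AP3B2 next to FSD2 had H3K27ac values of 9.85 and 13.6 from peaks at different TSSs, and METTL17 next to RNASE2 had values of 11.7 and 14.2. At its canonical TSS alone, AP3B2 was decreased in H3K27ac, with values of 5.95 and 13.6, though the region there was short of a ratio of 2 after rescaling.

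Of the fascins, FSCN1 had H3K27ac promoter values of 4.41 and 6.54 and FSCN2 values of 8.13 and 5.92, neither past a ratio of 2. All 14 RING-between-RING ligases carried both marks at their promoters in each cell line. RNF217, which was chosen for its rise, was the only member increased. Of all protein-coding promoters, 3.49% were increased and 8.27% decreased in H3K27ac, and 1.92% and 5.25% in H3K18ac. ARIH1 and ARIH2 were decreased in H3K27ac, both with log2 ratios of -1.11. Of the 3 genes that share the domains of FSD2, CMYA5, a muscle gene, had an H3K27ac promoter peak of 2.26 in C4-2BER only, and FSD1L was decreased in H3K18ac with a log2 ratio of -1.02.

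Of the 12 RNase A family members other than RNASE2, 3 were increased and none decreased in H3K27ac, beside 3.49% and 8.27% of all protein-coding promoters. The increased ones were RNASE1 with a peak of 2.31, RNASE3 and RNASE7. In H3K18ac, where 1.92% of all promoters were increased and 5.25% decreased, 2 were increased, RNASE3 and RNASE12 with a peak of 2.36, and 1 was decreased, RNASE6, with a peak of 2.41 in C4-2B only. All of these peaks but those of RNASE3 and RNASE7 were under a fold enrichment of 2.5, and RNASE9, RNASE10 and RNASE13 had no promoter peak of either mark. ANG and RNASE4, which share a promoter, had H3K27ac values of 15.9 and 20.1.

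Marker promoters were read beside the cell line labels, but they cannot verify the labels, since most did not differ between the lines by the rule. The prostate luminal genes KLK3, KLK2, TMPRSS2, HOXB13 and FOLH1 carried both marks at their promoters in each cell line, and none of them was increased or decreased. Of the neuroendocrine genes, ENO2 was increased in H3K27ac, with values of 14.3 and 4.00, and SYP had values of 5.67 and 8.16. CHGA, NCAM1 and INSM1 had no H3K27ac promoter peak in either cell line. In H3K18ac these neuroendocrine genes had promoter peaks in both cell lines and none of them was increased or decreased. The shares of all protein-coding promoters were 3.49% increased and 8.27% decreased in H3K27ac, and 1.92% and 5.25% in H3K18ac.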

How the data were processed

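For ChIP-Seq of both marks, cells of each line were fixed with disuccinimidyl glutarate and formaldehyde and sonicated. The authors aligned reads to GRCh38 with bowtie2 (Bowtie2 2.2.3 in the submitters' processing notes; the study's methods name a later version), removed blacklisted regions, alignments of low mapping quality and duplicates, merged the replicates of a mark and cell line and called broad peaks with macs2. The 4 deposited lists hold a fold enrichment for each peak, which is a ratio of ChIP signal to local background, and its −log10 q-value; the deposited −log10 p-value was not used. No scaling between the lists was applied to the fold enrichments, and any difference in background between them enters a ratio.

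Peaks were used as deposited, between 68034 and 198451 per list. Overlapping peaks were merged into regions, valued by the mean fold enrichment weighted by peak length. Promoter values over whole regions were instead the highest fold enrichment of any peak in the regions that the windows touch. Genes and TSSs were those of GENCODE release 44. Named were the 4 genes, their nearest protein-coding neighbours, genes sharing a promoter peak, neighbours and relatives with a changed promoter and the next genes of the rankings. The pseudogene RNASE2CP and the NDRG2 region were added after their values were seen. The members and gene lists were chosen with earlier results of these data known. Promoter sequences were RefSeq's of GRCh38.p14, 250 bases before to 50 after a TSS, searched on both strands for 9 motifs. These were the TATA box as TATAAA, the NF-Y site as CCAAT, the site of SP and KLF factors as GGGCGG and the ETS site as CCGGAA. The forkhead site was searched as TGTTTAC, the AP-1 site as TGANTCA and a steroid receptor half-site as AGAACA. The site of PBX with HOX was searched as TGATTNAT and the E-box as CAGCTG, and none of these letters overlapped another motif in the sequences printed. RNASE2, RNASE3 and RNASE2CP were aligned locally with Biopython 1.88, from 4000 bp upstream to 1000 bp downstream of the TSS. Merging, calls and promoter values were tested on simulated data. Python 3.11.15 with numpy 2.4.6 and pandas 2.3.3 was used. The paper describes the merged libraries of a group as biological replicates, and the merged lists cannot show how far they differ. The other assays of the study were not analysed here. Results for some genes and for 1 sequence are not reported here.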

Additional observations from a re-analysis of the deposited data

How the results depend on the processing

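Promoter values were recomputed with other windows, TSSs, summaries, scalings and peak thresholds, set in 15 alternatives, and over whole merged regions, which was chosen after seeing the data. Of 68 values, 60 kept their direction and call, though not all kept their size. RNASE2 in H3K18ac fell from 6.04 to 2.30 with 1000 bp on both sides of the TSS and to 3.23 with a mean weighted by the bases in the windows, and FSCN3 in H3K18ac fell from a log2 ratio of 1.81 to 1.02 with that mean. FSCN3 turned in H3K27ac with 1000 bp on both sides of every TSS (a peak of 2.37 in C4-2B only) and over whole regions (log2 ratio -0.53). In H3K18ac it turned with 1000 bp on both sides (log2 ratio -0.26), at the canonical TSS (a peak of 2.13 in C4-2B only) and over whole regions (-0.22). FSD2 turned over whole regions (-0.95 in H3K27ac and -0.93 in H3K18ac). These turns follow from the construction, since the narrower windows no longer touch the ARF5 peak and whole regions take in the C4-2B peaks. Many of the 60 kept calls follow from it as well, so their number is no measure of robustness. The fold and q-value thresholds kept the deciding C4-2BER peaks, chosen for being high. They removed the C4-2B peaks of FSCN3 in both marks and of RNF217 in H3K27ac. FSD2 and RNASE2 had no C4-2B peak in any of the promoter windows tried. RNF217 in H3K18ac fell to a log2 ratio of 0.62 with a mean weighted by the bases in the windows, which takes in a further C4-2BER peak of 2.47 in the window of an internal TSS. With 1000 bp on both sides no peak was left for FSD2 in either mark or for RNASE2 in H3K27ac, nor for FSCN3 in H3K27ac at the canonical TSS.

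Counts moved with the extent of the loci and the peak threshold. With 50 kb, with 200 kb, with a fold of 4 or more and with a −log10 q-value of 5 or more, increased H3K27ac regions numbered 8, 23, 5 and 8 in place of 15, decreased ones 4, 14, 2 and 1 in place of 8, and increased H3K18ac regions 29, 76, 5 and 11 in place of 46. Decreased H3K18ac regions numbered 39 with 200 kb, 3 with the fold and 2 with the q-value threshold in place of 21. Neighbours increased in H3K27ac numbered 1 under either threshold in place of 3, and 1 was decreased at the canonical TSS in place of 0. Neighbours increased in H3K18ac numbered 2 at the canonical TSS and under either threshold in place of 1. The other 31 counts stayed within 1.5 times. No paired analysis was possible because peaks were called on merged replicates, which also prevents leaving out a replicate, and the unknown depth limits what a missing peak shows.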

Other observations

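The edge of the promoter window mattered for other genes too. Of 700 protein-coding promoters increased in H3K27ac, 592 were also increased over the whole regions that their windows touch, 99 were no longer past the ratio of 2 and 9 were decreased, so 15.4% lost the call. In H3K18ac 311 of 384 increased promoters were increased over whole regions, and 19.0% lost the call. Of the promoters decreased in H3K27ac, 4.59% lost the call, and of those decreased in H3K18ac, 13.3%. Of the 56 genes with promoter peaks of both marks in C4-2BER only, RNASE2 included, 45 had C4-2BER peaks only over whole regions as well, and 11, FSD2 included, did not.

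Peaks were wider in C4-2BER. Where 1 peak of each cell line formed a shared region, the median width was 1596 bp in C4-2BER and 1300 bp in C4-2B in H3K27ac, and the C4-2BER peak was the wider one at 68.7% of 41075 regions. In H3K18ac the medians were 1088 and 896 bp, with the wider peak in C4-2BER at 62.2% of 108685 regions. The ARF5 peaks (2077 and 1786 bp in H3K27ac) and the WHAMM peaks (3093 and 2280 bp) followed this direction. The part of peak width in the promoter values of other genes was not tested.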
